A study of Mus musculus with 6 samples.

Results

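The genes described here mostly encode enzymes that break fatty acids down in mitochondria or enzymes that build, lengthen, desaturate and activate them. They were read from a table of RNA-sequencing counts of TKO (triple knockout) cells, a mouse line of ovarian cancer, in which MNRR1-knockout (KO) cells were compared with cells of the same line that keep MNRR1 (Wild Type, WT). The members were the rows whose Ensembl gene ID carries 1 of 37 gene symbols in the GENCODE M21 annotation of the mouse genome build GRCm38. All 37 symbols were found among the 49315 genes of the table, and all 37 passed the filter on low counts, which 16033 genes passed. They fall into 21 genes of oxidation, 12 of synthesis, elongation and desaturation, and 4 acyl-CoA ligase genes. The oxidation group includes 2 nuclear receptor genes, Ppara and Ppard, and the methyltransferase gene Etfbkmt, none of which encodes an enzyme acting on fatty acids.

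There were 3 KO and 3 WT libraries, each of RNA from cells labelled as ovary and ovarian cancer, and the labels give no treatment, time or age. Both genotypes carry whatever knockouts gave the TKO line its name, and the labels do not say which genes those are. The KO libraries bear the name of 1 clone, so differences between genotypes cannot be told apart from differences between that clone and the WT cells. The labels do not say that libraries 1 to 3 of a genotype were separate cultures, so the spread between them may be technical.

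Fatty acids enter mitochondrial oxidation as acyl-CoA. Carnitine palmitoyltransferases carry the acyl group across the mitochondrial membranes, acyl-CoA dehydrogenases take the first electrons, and a hydratase, a second dehydrogenase and a thiolase complete each round and release acetyl-CoA. Synthesis runs the other way in the cytosol, from citrate-derived acetyl-CoA through malonyl-CoA to palmitate, which elongases and desaturases of the endoplasmic reticulum modify. Oxidation genes are known targets of the PPAR nuclear receptors and synthesis genes of the SREBP transcription factors. MNRR1, the product of Chchd2, is a protein of mitochondria and nucleus.

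Values are CPM (counts scaled to a common library size), scaled by edgeR's TMM method, which takes a trimmed mean of log ratios. The 3 values of a genotype are given in the order of replicates 1 to 3. A change is the fitted log2 ratio of KO over WT with its standard error (SE). A gene is called higher or lower at p under 0.05 by edgeR's quasi-likelihood test after Benjamini-Hochberg adjustment over all 16033 tested genes. The comparison as a whole called 55.7% of the tested genes, 27.8% higher and 27.8% lower in KO, and the count of members is to be read against those shares. Total counts per library ran from 33226463 to 40983999. Chchd2, the targeted gene, had 581, 717 and 658 counts for KO and 12835, 11824 and 13506 counts for WT libraries, so it went with the labels in all 6.

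Markers of the labelled tissue were mixed. The ovarian surface and Mullerian markers summed to 2564 to 2948 CPM with KO and 3439 to 3692 CPM with WT libraries. Upk3b, Wt1 and Muc16 were the highest, and Pax8 was at 0 to 0.543 CPM. Of the 6 tested, 4 were called lower in KO: Lhx9 (-3.26), Gata4 (-1.50), Msln (-1.38) and Upk3b (-0.54). Muc16 was called higher (0.46), and Wt1 was not called. The 7 epithelial markers summed to 1110 to 1146 CPM with KO and 1427 to 1639 CPM with WT. The keratin genes Krt8, Krt18 and Krt19 were high, but Epcam was at 2.16 to 2.94 CPM and Cdh1 at 0.309 to 0.620 CPM. Of the 6 tested, 3 were called lower in KO: Krt7 (-1.88), Krt8 (-0.76) and Krt18 (-0.55). Krt19 was called higher (0.44), Epcam and Cdh1 were not called, and Cldn4 was under the filter. Adipocyte markers, from a cell type rich in the enzymes described here, summed to at most 1.34 CPM in any library, and the T cell marker Cd3e was at 0 in all 6. Hepatocyte transcripts were present in every library: the 5 markers Alb, Apoa1, Ttr, Apob and Fabp1 summed to 92.7, 97.2 and 86.3 CPM for KO and 107, 151 and 240 CPM for WT libraries, and 3 of the 5 were called lower in KO. WT replicate 3 was the library with the highest sum. Mesenchymal markers summed to 666 to 822 CPM across KO and 1236 to 1320 CPM across WT libraries. Of the 6 tested, Thy1 (-9.40, at 0 counts in KO), Col1a1 (-3.70) and Vim (-1.44) were called lower. Pdgfrb was called higher (2.14), and Pdgfra and Dcn were not called. Immune and endothelial markers reached at most 8.09 and 6.20 CPM in any library. In such bulk samples fewer cells of a type and less RNA per cell cannot be told apart, and the part of these marker differences in the results was not tested.

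Of the 37 genes, 29 were called higher and 5 lower in KO, and 3 did not pass the test. KO and WT libraries did not overlap for those 34 called genes, 29 above and 5 below, where 32.1% and 31.9% of all tested genes were so placed. Oxidation genes were called higher in 16 of 21 cases and lower in 2, with a median log2 change of 0.31, and synthesis, elongation and desaturation genes in 11 of 12 cases and lower in 1, with a median of 0.63. Without the 2 nuclear receptors, oxidation members were called higher in 15 of 19 cases and lower in 2. The ligase genes divided into 2 higher and 2 lower. The median of all tested genes was 0.01. A called rise of 2-fold or more was found in 3 of the 37 members, Cpt1c, Etfbkmt and Scd1. That is about the same share as the 8.1% of all tested genes. A called rise of at least 0.5 on the log2 scale was found in 16 of the 37 members, against 17.1% of all tested genes. Both genotype groups of each member are shown in the plot of levels.

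**Figure D1:**
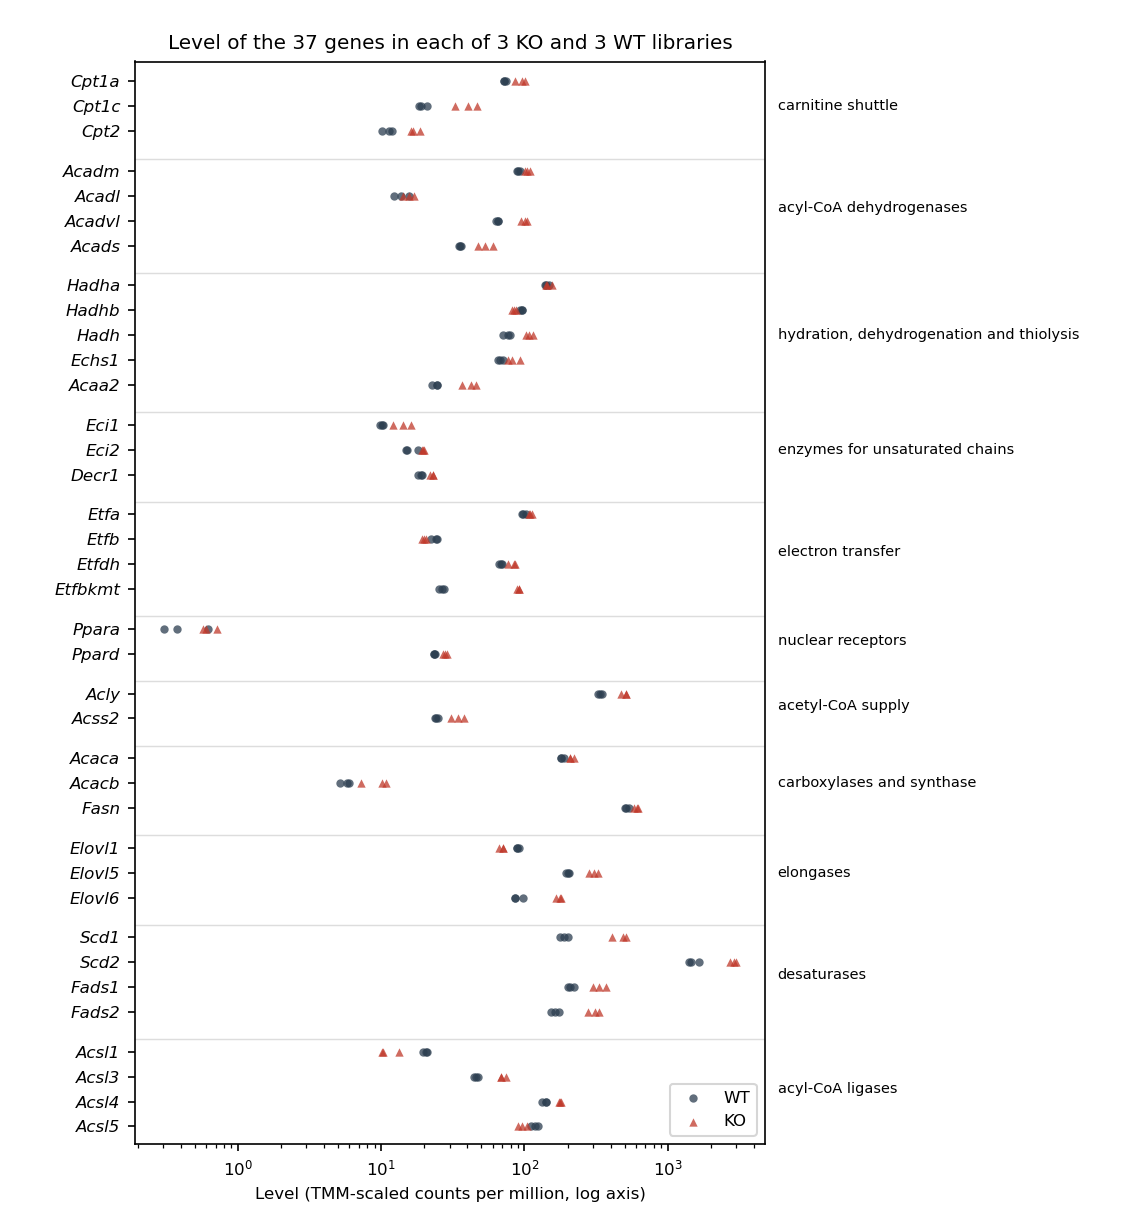
Level of each of the 37 genes in TMM-scaled CPM (log axis) in 3 WT libraries (circles) and 3 KO libraries (triangles), ordered by role. Scd2 lies at the right, between 1418 and 3021 CPM, and Ppara at the left, below 1 CPM; WT and KO points overlap for Acadl, Hadha and Ppara.

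The scale on which both pathways were expressed was uneven. Summed over their members, oxidation transcripts made 1276, 1212 and 1348 CPM for KO and 1017, 984 and 997 CPM for WT libraries. Synthesis, elongation and desaturation transcripts summed to 5969, 5526 and 6192 CPM for KO and 3479, 3358 and 3725 CPM for WT libraries. These sums were 1.28-fold and 1.67-fold higher in KO. The exact two-sided permutation test gave p = 0.1 for both, the smallest p that 3 against 3 libraries allow. Without Scd1 and Scd2, the sum of the remaining 10 synthesis, elongation and desaturation genes was 1.40-fold higher in KO. Scd2 alone supplied 38.2% of the CPM of all 37 genes in KO and 31.2% in WT. It ranked as number 7 of the 16033 tested genes by mean CPM in KO and as number 39 in WT.

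Promoter sequences were read for the genes at the ends of the range and for a divergent pair, from the RefSeq table of GRCm38.p6, and are printed 5′ to 3′ on the gene's own strand, up to the start site and without bases that lie in an annotated exon. Capitals mark matches, on either strand, to the motifs searched in these windows. Etfbkmt is shown because it rose most of the 37, Cpt1c because it rose most in the carnitine shuttle, Fasn because its window holds the most CCAAT matches, Acsl1 because it fell most, and the stretch before Hadhb because Hadha starts from its other side.
Etfbkmt (chr6:149141263-149141512, plus strand): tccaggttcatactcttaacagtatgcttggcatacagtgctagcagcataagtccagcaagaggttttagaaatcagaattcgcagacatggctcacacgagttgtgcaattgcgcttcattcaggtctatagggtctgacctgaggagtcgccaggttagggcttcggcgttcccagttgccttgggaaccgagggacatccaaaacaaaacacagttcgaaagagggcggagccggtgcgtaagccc
Cpt1c (chr7:44974852-44975101, minus strand): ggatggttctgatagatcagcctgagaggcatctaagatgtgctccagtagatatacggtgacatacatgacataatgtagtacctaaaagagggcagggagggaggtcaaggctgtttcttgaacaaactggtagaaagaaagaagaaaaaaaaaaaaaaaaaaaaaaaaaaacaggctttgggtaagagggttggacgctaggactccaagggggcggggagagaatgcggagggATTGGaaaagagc
Fasn (chr11:120824548-120824797, minus strand): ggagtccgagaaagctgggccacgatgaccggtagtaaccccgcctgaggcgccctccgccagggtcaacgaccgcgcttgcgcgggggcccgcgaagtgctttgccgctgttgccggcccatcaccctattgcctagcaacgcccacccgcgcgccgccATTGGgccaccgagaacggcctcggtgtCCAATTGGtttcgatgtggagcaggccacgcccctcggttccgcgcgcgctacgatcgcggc
Acsl1, the second of its 2 listed starts (chr8:46490716-46490965, plus strand): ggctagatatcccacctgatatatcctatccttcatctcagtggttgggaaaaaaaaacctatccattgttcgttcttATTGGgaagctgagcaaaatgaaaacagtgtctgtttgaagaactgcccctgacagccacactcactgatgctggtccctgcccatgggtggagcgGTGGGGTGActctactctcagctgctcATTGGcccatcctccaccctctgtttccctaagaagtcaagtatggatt
Hadhb (chr5:30155163-30155247, plus strand): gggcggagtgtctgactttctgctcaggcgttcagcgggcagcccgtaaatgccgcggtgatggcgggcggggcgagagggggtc

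The search covered 250 bases before to 50 after each start for the 32 members with an entry, in 34 windows, since Acsl1 and Elovl1 have 2 each. The members without an entry were Acaa2, Decr1, Fads1, Scd1 and Scd2. The CCAAT box (CCAAT, or ATTGG on the other strand) was found in 18 of the 34 windows, 52.9%, and in 37.4% of all 32851 windows. Member windows were richer in G and C, with a median of 61.8% against 52.7%. In Fasn the box was matched at -90, -62 and -59 from the start, the last 2 overlapping as CCAATTGG. The sterol regulatory element (TCACNCCAC), where SREBP factors bind, matched only the Acsl1 window shown, at -76 on the other strand, against 1.24% of all windows. The window of the first listed Acsl1 start, at position 46471037, is not printed and held no match to any of the motifs. The E-box CACGTG matched Elovl5 alone (7.15% of all windows) and the C/EBP-ATF element TGATGNAA Echs1 alone (3.97%). The PPAR direct repeat DR1, the estrogen-related receptor element TNAAGGTCA and the RBPJ site GTGGGAA matched none of the 34 windows, where 0.0396%, 1.28% and 6.38% of all windows hold them. A match is a stretch of letters and not a bound site. The absence of one says nothing of sites outside the window or of sites that differ from the letters searched.

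All 3 members grouped under the carnitine shuttle rose in KO. Cpt1c (ENSMUSG00000007783, chromosome 7, positions 44959372 to 44974851 on the minus strand), the isoform of carnitine palmitoyltransferase 1 known from the brain and the endoplasmic reticulum, was at 40.4, 32.8 and 46.8 CPM across KO libraries and 20.9, 18.3 and 18.9 CPM across WT libraries. Each KO library was above each WT library, and the change was 1.04 (SE 0.12, adjusted p = 4.90e-05 by edgeR's quasi-likelihood test). Cpt1a, the widely expressed isoform of the outer membrane and the step that malonyl-CoA inhibits, was at 95.6, 85.3 and 101 CPM across KO libraries and 71.5, 72.3 and 74.1 CPM across WT libraries, a change of 0.37 with no overlap. Cpt2, which returns the acyl group to CoA inside the inner membrane, was at 16.6, 16.1 and 18.6 CPM across KO libraries and 11.9, 11.4 and 10.1 CPM across WT libraries, a change of 0.62 (SE 0.10). The muscle isoform Cpt1b, whose exons coincide over 81.38% of their length with a read-through gene, was at 1.05 ± 0.189 CPM with KO and 1.09 ± 0.181 CPM with WT (SD, n = 3) and did not pass the test (adjusted p = 0.871 by edgeR's quasi-likelihood test).

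The make-up of the Cpt1 family differed between genotypes. Per length of exon, Cpt1c took 36.0%, 33.7% and 38.2% of the Cpt1 transcripts for KO and 28.0%, 24.9% and 25.2% for WT libraries. The KO libraries were all above the WT libraries, by 9.94 percentage points on average (exact two-sided permutation p = 0.1, the smallest possible). Cpt1a remained the larger share in all 6 libraries.

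Among the acyl-CoA dehydrogenases, which catalyse the first step of each round at different chain lengths, 3 of 4 rose. Acadvl (ENSMUSG00000018574, chromosome 11, positions 70010183 to 70015411 on the minus strand), for very long chains, was at 100.5, 94.6 and 105 CPM across KO libraries and 65.8, 65.2 and 63.7 CPM across WT libraries, a change of 0.62 (SE 0.06) with no overlap. Its exons share 42.85% of their bases with Dvl2 on the opposite strand, a gene of Wnt signalling that was itself higher by 0.69, and without the strand setting the reads of the overlap cannot be assigned. Acads, for short chains, was at 52.8, 47.3 and 60.2 CPM across KO libraries and 34.9, 35.2 and 36.1 CPM across WT libraries, a change of 0.59 (SE 0.08). Medium-chain Acadm was at 105, 102 and 109 CPM across KO libraries and 89.6, 88.4 and 93.5 CPM across WT libraries, a smaller change of 0.21. Long-chain Acadl was at 15.7, 14.3 and 17.0 CPM across KO libraries and 15.6, 12.2 and 13.7 CPM across WT libraries, where the ranges overlapped, and its change of 0.17 (SE 0.11) did not pass the test (adjusted p = 0.195 by edgeR's quasi-likelihood test). With scaling by library totals Acadl passed, at 0.30 and an adjusted p of 0.0437, and its adjusted p lay between 0.0437 and 0.558 across settings.

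The enzymes that follow divided. Hadh, the 3-hydroxyacyl-CoA dehydrogenase for shorter chains, was at 108, 102 and 114 CPM across KO libraries and 78.8, 70.8 and 76.8 CPM across WT libraries, a change of 0.52 (SE 0.06). Acaa2, the mitochondrial thiolase that ends the round, was at 42.7, 36.6 and 46.0 CPM across KO libraries and 22.7, 24.7 and 24.3 CPM across WT libraries and rose by 0.80 (SE 0.09). The hydratase gene Echs1 rose by 0.31, from 68.03 ± 3.03 to 84.4 ± 8.54 CPM (SD, n = 3). All 3 were without overlap between genotypes.

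The 2 subunit genes of the mitochondrial trifunctional protein, which carries out the same steps on long chains at the inner membrane, were not called higher. Hadha, the alpha subunit (chromosome 5, positions 30118304 to 30155162 on the minus strand), was at 144, 142 and 156 CPM across KO libraries and 149, 139 and 141 CPM across WT libraries, and its change of 0.04 (SE 0.06) missed the threshold (adjusted p = 0.530 by edgeR's quasi-likelihood test). Hadhb, the beta subunit (chromosome 5, positions 30155248 to 30184593 on the plus strand), was at 84.3, 81.4 and 86.7 CPM across KO libraries and 95.4, 96.6 and 93.3 CPM across WT libraries, with every KO library below every WT library, and its change was -0.18 (SE 0.05, adjusted p = 0.0123). The call of Hadhb was lost without WT replicate 2 (adjusted p = 0.0552) and with scaling by upper quartiles (0.0532) or library totals (0.396), in a range of 0.00789 to 0.396. Hadha passed with library totals, at 0.17 (adjusted p = 0.0270, in a range of 0.0270 to 0.989). Both genes start from the short divergent stretch printed above, and Hadha gave 1.71, 1.74 and 1.80 reads per Hadhb read for KO and 1.56, 1.44 and 1.51 for WT libraries. That ratio was 1.16-fold higher in KO with no overlap (exact two-sided permutation p = 0.1, the smallest possible).

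The 3 auxiliary enzymes that deal with double bonds all rose, by less than 0.5. Eci1 and Eci2 encode enoyl-CoA isomerases and Decr1 encodes the 2,4-dienoyl-CoA reductase. Eci1 rose by 0.49, from 10.1 ± 0.188 to 14.1 ± 1.96 CPM, and Decr1 by 0.27, from 18.7 ± 0.606 to 22.6 ± 0.588 CPM (SD, n = 3). Eci2 was at 19.6, 20.0 and 19.4 CPM across KO libraries and 15.2, 14.8 and 18.0 CPM across WT libraries, a change of 0.29, and its call was lost without WT replicate 1 (adjusted p = 0.0780 by edgeR's quasi-likelihood test) or WT replicate 2 (0.0826), in a range of 0.00322 to 0.0826.

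Electrons of the dehydrogenases pass to the electron transfer flavoprotein (ETF), a dimer of the products of Etfa and Etfb, and from there through the ubiquinone oxidoreductase Etfdh to the respiratory chain. The greatest change of all 37 genes was in Etfbkmt (ENSMUSG00000039958, chromosome 6, positions 149139849 to 149151171 on the plus strand), whose product methylates lysines of ETF beta. It was at 91.6, 88.5 and 90.9 CPM across KO libraries and 25.4, 27.5 and 26.4 CPM across WT libraries. The KO values lay close together, far above all WT values, and the change was 1.77 (SE 0.06, adjusted p = 7.31e-09 by edgeR's quasi-likelihood test), or 3.42-fold. Across the 16 settings it ran from 1.74 to 1.89.

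The substrate of that enzyme went the other way. Etfb (ENSMUSG00000004610, chromosome 7, positions 43444083 to 43457800 on the plus strand) was at 19.3, 20.5 and 19.9 CPM across KO libraries and 24.0, 24.4 and 22.3 CPM across WT libraries, with all KO libraries below all WT libraries, a change of -0.25 (SE 0.07, adjusted p = 0.0136 by edgeR's quasi-likelihood test). A read-through gene, at 0 to 6 counts per library, covers 53.01% of the exon bases of Etfb on the same strand. How reads of the shared bases were assigned is not given, and their part in the level of Etfb was not tested. The partner gene Etfa was at 108, 113 and 109 CPM across KO libraries and 103, 96.2 and 97.3 CPM across WT libraries, a change of 0.15 (adjusted p = 0.0256), and Etfdh rose by 0.27, from 68.3 ± 1.26 to 82.5 ± 4.79 CPM (SD, n = 3). Reads of Etfa per read of Etfb came to 5.60, 5.51 and 5.49 for KO and 4.29, 3.94 and 4.36 for WT libraries, 1.32-fold higher in KO with no overlap (exact two-sided permutation p = 0.1, the smallest possible). Both single calls were small. For Etfb the adjusted p rose to 0.0621 without KO replicate 1, 0.0581 without WT replicate 1, 0.0632 without WT replicate 2 and 0.155 with library totals, in a range of 0.00508 to 0.155. For Etfa it rose to 0.0545 without KO replicate 1, 0.127 without WT replicate 2, 0.0951 without WT replicate 3, 0.0832 with no filter and 0.0761 in DESeq2, in a range of 0.000566 to 0.127.

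Of the nuclear receptors that regulate oxidation genes, Ppard was the expressed one. It was at 27.9, 27.1 and 29.0 CPM across KO libraries and 23.3, 23.3 and 23.7 CPM across WT libraries and rose by 0.25 (SE 0.07). Ppara had 20, 29 and 23 counts for KO and 13, 21 and 12 for WT libraries, near the limit of the filter, and its change of 0.55 (SE 0.35) did not pass the test (adjusted p = 0.198 by edgeR's quasi-likelihood test). Pparg, from the list of regulators, was under the filter, at no more than 4 counts in any library. Per length of exon, Ppard took 94.7% to 97.0% of the transcripts of the 3 receptors in all libraries.

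**Figure D2:**
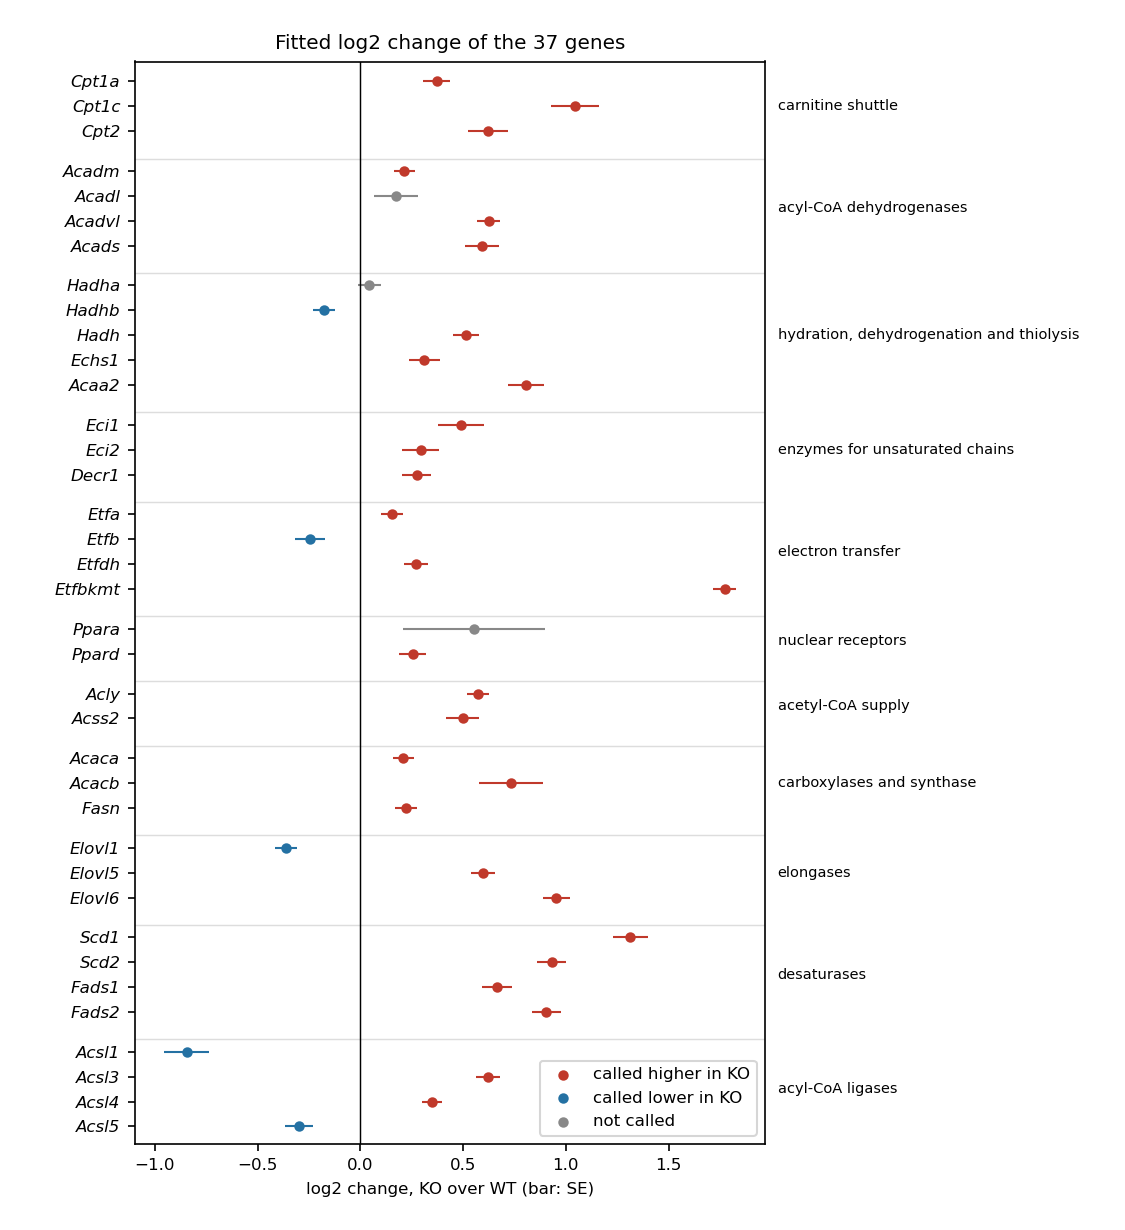
Fitted log2 change of KO over WT for each of the 37 genes, with bars of 1 SE, ordered by role and coloured by the call of edgeR's quasi-likelihood test. Etfbkmt at 1.77 and Scd1 at 1.31 lie farthest to the right, and Acsl1 at -0.85 lies farthest to the left.

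On the side of synthesis, both genes that supply cytosolic acetyl-CoA rose. Acly (ENSMUSG00000020917, chromosome 11, positions 100476353 to 100528000 on the minus strand), ATP citrate lyase, was at 515, 475 and 515 CPM across KO libraries and 348, 325 and 337 CPM across WT libraries, with no overlap and a change of 0.57 (SE 0.05, adjusted p = 1.00e-05 by edgeR's quasi-likelihood test). Acss2, which makes acetyl-CoA from acetate, rose by 0.50, from 24.3 ± 0.579 to 34.3 ± 3.48 CPM (SD, n = 3).

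All 3 genes of the carboxylase and synthase steps rose. Fatty acid synthase, Fasn, was at 614, 580.4 and 618 CPM across KO libraries and 513, 503 and 536 CPM across WT libraries, and its change of 0.22 (SE 0.05) was small beside its level, though without overlap. Acaca, the main cytosolic acetyl-CoA carboxylase, changed by 0.21 (SE 0.05), from 183 ± 5.50 to 212 ± 8.04 CPM (SD, n = 3). Acacb (ENSMUSG00000042010, chromosome 5, positions 114146535 to 114250761 on the plus strand), the carboxylase at the mitochondrial surface whose malonyl-CoA restrains Cpt1, was at 10.1, 7.25 and 10.9 CPM across KO libraries and 5.78, 5.17 and 5.995 CPM across WT libraries, a change of 0.73 (SE 0.15). Per length of exon it took 7.49%, 5.83% and 8.50% of the carboxylase transcripts for KO and 5.12%, 4.83% and 5.58% for WT libraries, so Acaca was by far the more abundant of the pair in both genotypes. The mean difference of 2.10 percentage points in that share was 1.25 with no length correction and 1.35 with the longest coding transcript.

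Elongases went in both directions. Elovl6 (ENSMUSG00000041220, chromosome 3, positions 129532355 to 129638495 on the plus strand), which lengthens palmitate, was at 181, 165 and 176 CPM across KO libraries and 86.4, 85.3 and 98.0 CPM across WT libraries, nearly doubled at a change of 0.95 (SE 0.07, adjusted p = 1.25e-06 by edgeR's quasi-likelihood test). Elovl5, which lengthens polyunsaturated chains, was at 307, 281 and 324 CPM across KO libraries and 205, 197 and 202 CPM across WT libraries, a change of 0.60 (SE 0.06). Elovl1, which makes very long saturated and monounsaturated chains, was at 66.1, 71.1 and 71.1 CPM across KO libraries and 88.0, 88.3 and 91.4 CPM across WT libraries and fell by 0.36 on the log2 scale (SE 0.05, adjusted p = 2.13e-04), the only one of the 12 genes of synthesis to be called lower. The genotypes did not overlap for any of the 3.

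As shares of the 7 elongase genes per length of exon, Elovl1 took 29.5%, 30.2% and 30.0% in WT libraries and 16.8%, 19.0% and 17.4% in KO. Elovl6 took 12.3%, 12.4% and 13.6% in WT and 19.5%, 18.8% and 18.2% in KO. The order of the pair within a library depended on the length used. With the longest coding transcript Elovl1 was above Elovl6 in all 6 libraries, and with no length correction Elovl6 was above Elovl1 in all KO libraries and in WT replicate 3. The share of Elovl1 was lower and that of Elovl6 higher in each KO library than in each WT library with all 3 lengths. Elovl5 held the largest share in all 6 libraries, at 51.4% to 61.3%.

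All 4 desaturase genes rose, with a median of 0.92. Scd1 (ENSMUSG00000037071, chromosome 19, positions 44394455 to 44407879 on the minus strand), a stearoyl-CoA desaturase that places the first double bond in saturated chains, was at 488, 408 and 509.6 CPM across KO libraries and 187, 176 and 202 CPM across WT libraries, a change of 1.31 (SE 0.08, adjusted p = 1.22e-06 by edgeR's quasi-likelihood test). Scd2 (ENSMUSG00000025203, chromosome 19, positions 44293674 to 44306864 on the plus strand), its neighbour on the chromosome and the predominant isoform of many non-hepatic tissues, was at 2890.3, 2718 and 3021 CPM across KO libraries and 1458, 1418 and 1653 CPM across WT libraries, a change of 0.93 (SE 0.07, adjusted p = 2.56e-06). All KO libraries were above all WT libraries for both. Scd2 gave 5.92, 6.66 and 5.93 reads per Scd1 read for KO and 7.78, 8.06 and 8.19 for WT libraries, so that Scd1 gained on Scd2 while staying the lesser (exact two-sided permutation p = 0.1, the smallest possible).

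Fads1 and Fads2 encode the desaturases that act on polyunsaturated chains, and the genes lie on opposite strands of chromosome 19. Fads2 (ENSMUSG00000024665, chromosome 19, positions 10062765 to 10101746 on the minus strand) was at 311, 279.6 and 329.7 CPM across KO libraries and 164, 154 and 173 CPM across WT libraries, a change of 0.91 (SE 0.07). Fads1 (ENSMUSG00000010663, chromosome 19, positions 10182888 to 10196877 on the plus strand) was at 329.9, 302 and 373 CPM across KO libraries and 209.5, 203 and 221 CPM across WT libraries, a change of 0.67 (SE 0.07). The genotypes were apart for both. Fads2 reads per Fads1 read were 0.944, 0.924 and 0.884 for KO and 0.783, 0.760 and 0.783 for WT libraries. Both desaturase pairs, Cpt1a and Acsl5 lie on chromosome 19, whose 534 tested genes had a median log2 change of 0.00 and were called higher in 29.8% and lower in 30.1% of cases. Other chromosomes were less even. Chromosome 5, with Acads, Hadha, Hadhb and Acacb, had a median of -0.15 and 38.4% of its genes called lower, and chromosome 13, with Eci2, had a median of -0.28. Chromosome 7, with Cpt1c, Echs1 and Etfb, and chromosome 18, with Acaa2, both had a median of 0.15, with 34.8% and 42.3% called higher. The part of these chromosome-wide differences in the members' changes was not tested.

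Acyl-CoA ligases activate fatty acids for either pathway, and their 4 genes split evenly. Acsl3 (ENSMUSG00000032883, chromosome 1, positions 78657825 to 78707743 on the plus strand), of the endoplasmic reticulum and lipid droplets, was at 68.7, 68.7 and 74.0 CPM across KO libraries and 44.1, 45.6 and 47.7 CPM across WT libraries, a change of 0.62 (SE 0.06). Acsl4, which prefers arachidonate and other polyunsaturated chains, was at 176, 174 and 179.7 CPM across KO libraries and 141, 133 and 141 CPM across WT libraries, a change of 0.35 (SE 0.05). Neither overlapped between genotypes.

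Acsl1 (ENSMUSG00000018796, chromosome 8, positions 46471037 to 46536051 on the plus strand), the main isoform of liver, fat and muscle, was at 10.3, 13.4 and 10.2 CPM across KO libraries and 19.5, 20.8 and 20.6 CPM across WT libraries, and fell by 0.85 on the log2 scale (SE 0.11, adjusted p = 9.11e-05 by edgeR's quasi-likelihood test). It was the greatest fall of the 37 genes and the only one past -0.5, where 13.6% of all tested genes were called. Hepatocyte markers moved in the same direction: their sum was 1.80-fold higher in WT than in KO on average, and so was Acsl1. Within WT the marker sum differed 2.24-fold between libraries and Acsl1 1.07-fold. Without WT replicate 3 the change of Acsl1 was -0.84. The part of liver-type RNA in the level of Acsl1 was not tested. Acsl5, a ligase of mitochondria and endoplasmic reticulum, was at 95.5, 89.5 and 104 CPM across KO libraries and 125, 119 and 112 CPM across WT libraries, a change of -0.30 (SE 0.07, adjusted p = 0.00298). Its call was lost with library totals (adjusted p = 0.0512, in a range of 1.50e-05 to 0.0512), and 8.31% of its exon bases are shared with Zdhhc6 on the opposite strand.

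As shares of the ligase family per length of exon, Acsl5 fell from 39.0% ± 1.72 in WT to 28.4% ± 1.15 in KO (SD, n = 3). Acsl4 went from 41.0% ± 1.017 to 46.9% ± 0.953 and Acsl3 from 16.8% ± 0.923 to 23.2% ± 0.274. Acsl4 was the larger of these in each KO library with all 3 lengths, while in WT libraries the order of Acsl4 and Acsl5 depended on the length: Acsl5 was the larger in WT replicates 1 and 2 with the longest coding transcript, and Acsl4 in all WT libraries with exon unions or no length correction. Acsl1 took 3.11% ± 0.166 in WT and 1.55% ± 0.300 in KO.

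**Figure D3:**
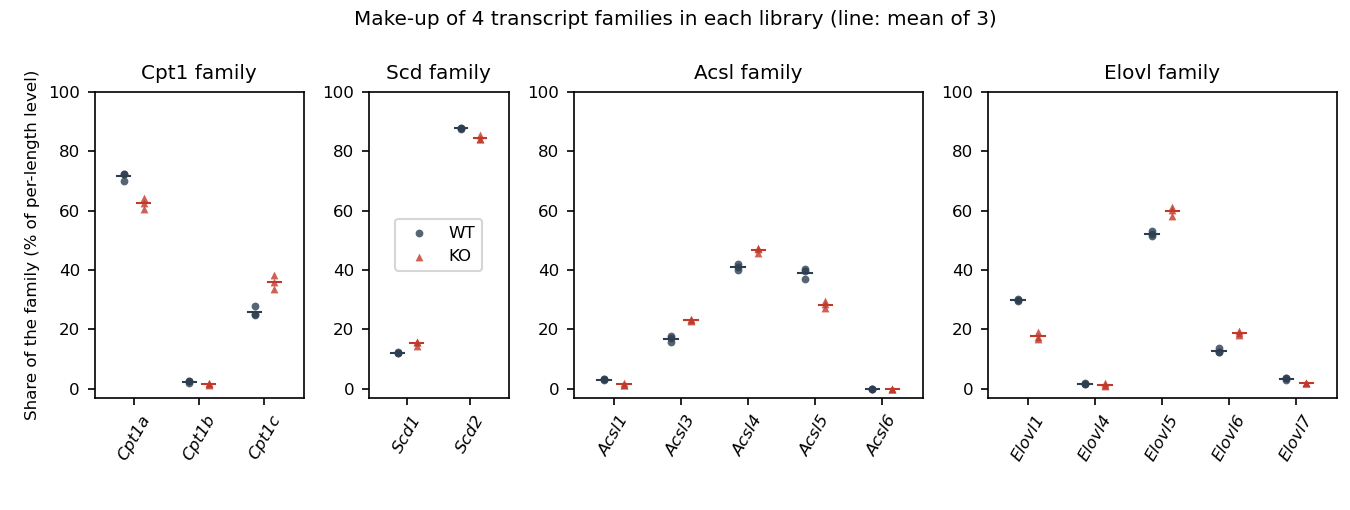
Share of each gene in the summed per-length level of its family, in percent, for 3 WT libraries (circles) and 3 KO libraries (triangles), with lines at the means. Elovl2, Elovl3, Scd3 and Scd4, all below 1%, are left out of the panels; Elovl1 and Acsl5 sit lower in KO, and Cpt1c, Elovl6, Acsl3 and Acsl4 sit higher.

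The KO libraries did not differ from WT to the same degree. KO replicate 2 was the lowest of the 3 KO libraries for 26 of the 29 higher members and the highest for 3 of the 5 lower ones. Of the KO libraries it also stood nearest to WT over all genes, with a mean correlation of log CPM with the WT libraries of 0.968, against 0.958 and 0.954 for KO replicates 1 and 3. Without it, the median log2 change was 0.37 for oxidation and 0.69 for synthesis members, and the counts of calls were as before in both groups. Scaling matters for the smaller changes: with library totals in place of TMM, the median of all tested genes moved from 0.01 to 0.13, 63.7% of all calls were higher in place of an even split, and Acadm, Acaca, Fasn and Etfa stood at 0.34, 0.33, 0.34 and 0.27. No member changed direction under any of the settings.

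Further genes of the same pathways were read from lists that do not include the members. Of 22 further genes of mitochondrial oxidation, 14 were called higher and 4 lower, with a median of 0.47, beside 27.8% each way over all genes. The CoA diphosphatase gene Nudt7, whose product is known from peroxisomes, rose from 1.78 ± 0.178 to 5.17 ± 0.322 CPM, the thioesterase gene Acot2 from 3.75 ± 0.895 to 9.37 ± 0.277 CPM and the dehydrogenase gene Acad12 from 1.91 ± 0.301 to 4.50 ± 0.991 CPM (SD, n = 3). Peroxisomal oxidation, which shortens very long and branched chains, had 13 of 20 tested genes called higher (65%) and the other 7 not called, with a median of 0.46. There the lyase gene Hacl1 changed by 1.47 and the oxidase gene Acox3 by 1.17, each with KO libraries spread more widely than WT. Both were without overlap between genotypes.

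Genes of uptake and carnitine handling were called higher in 6 and lower in 3 of 12 tested cases, with a median of 0.26. These are 50% and 25%, beside 27.8% each way over all genes. The fatty acid transporter gene Slc27a1 rose from 3.90 ± 0.185 to 11.6 ± 2.61 CPM and the acyl-CoA binding protein gene Dbi from 76.8 ± 2.42 to 116 ± 9.07 CPM, while Slc27a2, a transporter known from liver, went from 2.44 ± 0.999 to 1.05 ± 0.201 CPM (SD, n = 3). Hepatocyte markers fell along with Slc27a2, and their part in it was not tested.

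Of the 20 tested further genes of synthesis and elongation, 4 were called higher and 10 lower, with a median of -0.21. These are 20% and 50%, beside 27.8% each way over all genes. The lower calls were 6 without KO replicate 1, without WT replicate 1 or without WT replicate 2, and also 6 with library totals or at a threshold of 0.01, where 4 or 5 were called higher. Tecr, the reductase of the elongation cycle, rose from 106 ± 7.13 to 191 ± 26.0 CPM and the mitochondrial malonyl-CoA synthetase gene Acsf3 from 6.96 ± 0.202 to 11.1 ± 0.475 CPM. Hacd1, a dehydratase of the same cycle, went from 27.1 ± 1.15 to 11.04 ± 2.75 CPM (SD, n = 3). The list included the desaturase-related genes Fads3 and Degs1, chosen after their values were seen, which were at -0.46 and -0.62, against 0.67 to 1.31 for the 4 desaturase members.

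Among 24 tested regulators, 9 were called higher and 4 lower, with a median of 0.01. These are 37.5% and 16.7%, beside 27.8% each way over all genes. Srebf1, whose product drives fatty acid synthesis genes, rose from 93.2 ± 3.06 to 116 ± 8.64 CPM, a change of 0.32. Srebf2 and Insig1, of the sterol-sensing branch and chosen after their values were seen, were at 0.47 and 0.53. In the same list Mbtps1 was called higher at 0.33, and Scap (0.05) and Insig2 (-0.02) were not called. The lower calls were Esrra at -0.35, Mbtps2 at -0.32 and Mlxip at -0.23, besides Prkab1 below. The glucose-responsive factor gene Mlxipl rose by 1.10 from 0.702 ± 0.0579 to 1.501 ± 0.0707 CPM, and the PPAR partner genes Rxrb and Rxra by 0.89 and 0.64. Of 5 subunit genes of the kinase AMPK, which restrains the carboxylases, 1 was called, Prkab1, lower at -0.27; the 5 were singled out after their values were seen.

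**Figure D4:**
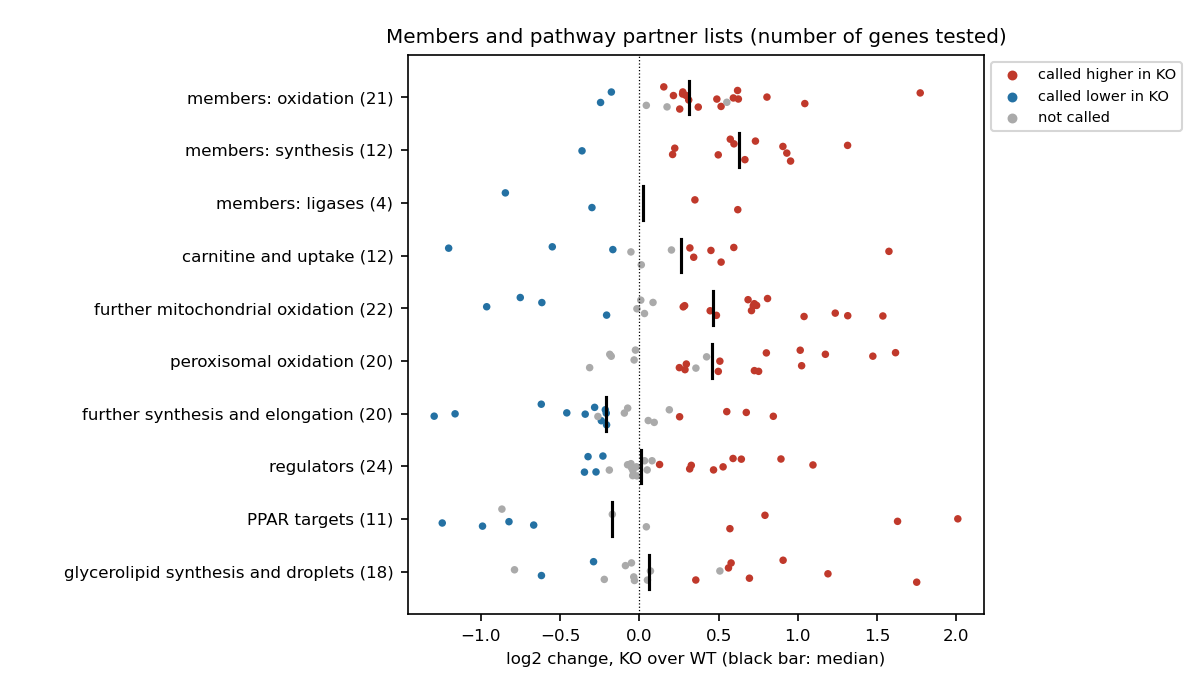
Fitted log2 change of KO over WT for each tested gene of the 3 member groups and 7 partner lists, coloured by the call of edgeR's quasi-likelihood test, with a black bar at each median. Medians run from 0.63 for the synthesis members to -0.21 for the further genes of synthesis and elongation.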

How the data were processed

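The deposited file is a table of whole-number read counts per Ensembl gene for 6 libraries, made from 1.3 ug of total RNA each, per the labels. Per the submitters' processing notes, the tools were STAR 2.5.2b, Subread 1.5.2, Trimmomatic 0.36, bcl2fastq 2.17 and DESeq2, and the build was GRCm38 (mm10). For the annotation release and the strand setting, the sources used here give nothing. Of 49315 genes, 49056 matched GENCODE M21. The counts were filtered (filterByExpr, minimum count 10), TMM-scaled and tested with edgeR 4.0.16 (robust quasi-likelihood, R 4.3.3) over KO against WT, with Benjamini-Hochberg adjustment and a threshold of 0.05. The biological coefficient of variation was 8.35%. Taken over library totals without TMM scaling, 3 counts correspond to 0.0732 to 0.0903 CPM. Alternatives were other scalings and filters, DESeq2 1.42.0, limma 3.58.1 (voom), a threshold of 0.01, the replicate block and leaving out each library. Shares within families divide CPM by the union of a gene's exons.

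The members and lists were chosen with earlier results of these data known. Per-library values are given for called members with a log2 change of at least 0.5 in size, for called members that moved against most of their role and for any that failed the filter, which were 0; some others are added. From each list of further genes, up to 3 called genes with the greatest change at 1 CPM or more are named, with Chchd2, Srebf1, Pparg and Cpt1b whatever their values; 1 gene that this rule names is not reported here.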

Additional observations from a re-analysis of the deposited data

How the results depend on the processing

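Counts of higher calls among oxidation, synthesis and ligase members, and over all genes, stayed within 1.5 times under each alternative. Of 554 single-gene results over 37 members and 15 alternatives, 537 kept direction and side of the threshold, 15 lost and 2 gained a call, in 7 genes, and none reversed. The 2 lower oxidation calls became 1 with upper quartiles, 0 with library totals, 0 at a threshold of 0.01, and 0 to 2 when 1 library was left out. With library totals the oxidation median was 0.43, the ligase median 0.15 and the lower ligase calls 1. The ligase median of 0.03 ran from -0.011 (without KO replicate 3) to 0.055 when 1 library was left out, and the cause was not tested. With no length correction the share changes became -3.10 percentage points for Acsl1, 6.95 for Acsl4 and 8.43 for Elovl6, from -1.56, 5.85 and 6.08, and that of Elovl5 fell from 7.84 to 3.61. With the longest coding transcript, an alternative chosen after seeing the data, that of Acsl1 was -3.57. The library names carry the same set numbers in both genotypes. Deviations of same-numbered libraries from their genotype means correlated at -0.059, 0.0513 and 0.0283, and those of other pairs at -0.0946 to 0.0848. No shared shift was seen, but such correlations cannot show whether the libraries were paired. A fit with the replicate block called 4412 genes higher and 4466 lower, against 4463 and 4462, and 16 and 2 oxidation, 11 and 1 synthesis and 2 and 2 ligase members, as without the block. The KO libraries come from 1 clone, and counts of transcripts say nothing of enzyme activity. Ppara had 12 to 29 counts per library, and its change of 0.55 had an SE of 0.35.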

Other observations

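Genes that store and release fatty acids as glycerolipid were called higher in 7 and lower in 2 of 18 tested cases. These are 38.9% and 11.1%, beside 27.8% each way over all genes, and their median log2 change was 0.06. Lipe, hormone-sensitive lipase, rose from 5.52 ± 0.648 CPM in WT to 18.6 ± 5.94 CPM in KO, Lpin3, a phosphatidate phosphatase, from 1.57 ± 0.270 to 3.58 ± 0.473 CPM, and Plin3, a lipid droplet coat protein, from 22.4 ± 1.93 to 41.9 ± 5.51 CPM (SD, n = 3).

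Genes known as PPAR targets were called higher in 4 and lower in 4 of 11 tested cases, with a median of -0.17. That is 36.4% each way, beside 27.8% each way over all genes. Fgf21, a secreted hormone of fasting and mitochondrial stress, rose from 4.23 ± 0.514 to 17.1 ± 0.916 CPM, and the lipoprotein receptor gene Vldlr from 5.28 ± 0.294 to 16.4 ± 0.919 CPM (SD, n = 3). Cyp4a10, a fatty acid hydroxylase of liver, went from 4.35 ± 1.54 to 2.20 ± 0.559 CPM, a change of -0.99. Its genotypes overlapped, with KO replicate 1 at 2.83 CPM and WT replicate 1 at 2.72 CPM. Hepatocyte marker sums, at 107 to 240 CPM in WT and 86.3 to 97.2 CPM in KO libraries, moved the same way as Cyp4a10, and their part in it was not tested.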
